A study of Mus musculus with 4 samples.

Results

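The genes described here are 32 members of the glycolysis and hypoxia response programme, taken by name from the 47643 genes of the authors' deposited table. They comprise 20 enzymes of glycolysis and its regulation, 4 transporters of glucose or lactate, and 8 regulators and targets of the hypoxia response. All 32 had at least 10 reads in at least 2 libraries, as did 17109 genes in all. The RNA was from periosteum, the thin tissue on the outer face of bone, here of mouse femora. All mice carried 1 allele of a tamoxifen-inducible Cre driven by Sox9 (Sox9CreErt2) and 1 allele of a Cre-dependent TdTomato reporter, and all were given tamoxifen 3 times (100 µL of 20 mg/mL each, with 48 h between). Intact femora were collected 2 weeks later, and TdTomato-positive and TdTomato-negative cells of the digested diaphyses were sorted, about 10000 of each from 18 femora of 9 mice in 2 collections. The ages of the mice were not given in the sources used here. There were 2 libraries per group from pooled animals, so that no p-value measures the spread between mice. Cre follows the Sox9 locus, so a labelled cell is one that expressed Sox9 at the time of tamoxifen or descends from one. The comparison asks how these cells differ from the other cells of the same digest.

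Glycolysis splits glucose into pyruvate in the cytosol, and lactate dehydrogenase turns pyruvate into lactate where oxygen or mitochondrial use is low. When oxygen falls, prolyl hydroxylases stop marking the transcription factor HIF-1 alpha for degradation. HIF dimers then raise the glucose transporters, most glycolytic enzymes and the kinases that shut off pyruvate dehydrogenase. Cartilage has no vessels and chondrocytes rely on this pathway, while bone marrow neutrophils are also strongly glycolytic.

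The 4 libraries differed in depth and in the cells they held. The table implies depths of 32 and 41.6 M reads (TdTomato-positive) and 17.0 and 74.0 M reads (TdTomato-negative), and libraries are named by them here. Markers of chondrocytes were higher in positive cells in 14 of 14 measured genes, those of osteoblasts and osteocytes in 11 of 11 and those of fibroblasts and tendon in 10 of 10. Neutrophil markers were lower in 13 of 13, erythroid markers in 9 of 9 and general leukocyte markers in 6 of 6, while macrophage markers were higher in 6 of 8 and platelet markers in 6 of 7. The negative 74.0 M library stood apart: its summed fibroblast and tendon markers were at 0.506 RPKM, against 325 RPKM in the other negative library and 202 to 1039 RPKM in the positive ones. In sorted bulk samples, fewer cells of a type and less RNA per cell cannot be told apart.

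The HIF dimer is known to bind a short core, ACGTG or GCGTG, and these letters were searched on both strands of the 250 bases before each RefSeq start site (build GRCm38.p6). Of the 32 members 29 had such a window, and 27 of these 29 held at least 1 match in at least 1 window (93.1%). Of all 27025 genes with a window 41.5% did. That background was not limited to genes with reads, and it was not matched for base content, though both cores hold CG. A gene with more windows also has more chances of a match, and the number of windows was not matched. The contrast is a description and not a test. By window, 35 of 42 held a match (83.3%), against 38.6% of all 32851 windows. Windows of a gene can overlap and share matches, as some of Eno1, Aldoa and Pfkm did, so the count by window holds some sites more than once. ACGTG lies inside the palindrome CACGTG, which other factors bind, and 14.3% of the member windows held that palindrome against 6.02% of all windows. The windows of 3 members are shown with the matches in capitals: Slc16a3, the member with the largest difference between the groups; Ankrd37, the member with the largest difference in the other direction; and Ldha, which had 5 matches and no such difference. The coordinates are chr11:120948817-120949066 (plus strand, inside the annotated span of Slc16a3), chr8:45999851-46000100 (minus strand) and chr7:46845554-46845803 (plus strand).
Slc16a3: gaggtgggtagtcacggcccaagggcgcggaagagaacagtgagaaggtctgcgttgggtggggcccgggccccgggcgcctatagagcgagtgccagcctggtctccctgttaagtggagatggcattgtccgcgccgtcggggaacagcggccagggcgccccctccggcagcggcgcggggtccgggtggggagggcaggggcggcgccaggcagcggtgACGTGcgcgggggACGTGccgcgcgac
Ankrd37: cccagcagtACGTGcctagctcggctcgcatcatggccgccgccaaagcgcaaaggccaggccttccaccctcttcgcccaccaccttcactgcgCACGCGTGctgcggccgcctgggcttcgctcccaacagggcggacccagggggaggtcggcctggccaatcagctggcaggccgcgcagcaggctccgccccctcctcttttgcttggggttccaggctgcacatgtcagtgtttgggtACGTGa
Ldha: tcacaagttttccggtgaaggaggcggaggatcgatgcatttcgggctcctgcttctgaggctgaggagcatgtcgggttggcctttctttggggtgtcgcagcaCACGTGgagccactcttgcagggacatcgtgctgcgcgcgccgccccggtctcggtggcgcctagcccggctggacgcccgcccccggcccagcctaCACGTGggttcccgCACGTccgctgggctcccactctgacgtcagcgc
Slc16a3 had 2 matches of ACGTG near the start site, and Ankrd37 had 2 of ACGTG and 2 of GCGTG. Of the 5 matches in Ldha, all of ACGTG, 4 came from 2 copies of the palindrome read on both strands. A match is a description of the letters only, and binding was not measured.

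No member differed between the groups past the threshold. An FDR of 0.05 or below in the authors' deposited table was reached by 0 of 32 members, where 0.0063% of all genes did. At an unadjusted p below 0.05 there was 1 member, Slc16a3, which was lower in positive cells. This compares with 0.894% of all genes listed and 2.17% of the 17109 genes with reads, split into 1.58% that were higher and 0.59% that were lower. Differences are given as a log2 fold, the difference between the group means of log2(RPKM + 0.1), positive minus negative. RPKM here is reads per M reads and per kilobase of the gene's genomic span, introns included. On this scale 13 members were higher and 19 lower in positive cells, with a median of -0.21. Of all genes with reads 54.0% were higher and 46.0% lower, with a median of 0.06. Of the members 26 lay within 1 log2 unit of 0 and 18 within 0.5. Without 1 library at a time the count of higher members ran from 11 to 15 and the median from -0.35 to -0.04, and the fold of 16 of 32 members changed sign at least once. These were Hk1, Hk2, Pfkl, Pfkm, Aldoc, Gapdh, Pgk1, Eno1, Eno3, Ldha, Slc2a1, Slc16a1, Egln1, Egln3, Epas1 and Car9. For 17 members it was not settled which value belongs to which library, as described below. Their folds without 1 library used only the assignment in which the libraries of a group differ less. Sign changes under the other assignment were not counted, so the count of 16 does not cover them. For most members the difference was smaller than the spread between libraries, and a p above the threshold does not show that the groups were alike.

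The table gives no column per library, and the 4 values of each gene were solved from its means, its maximum and its log difference. For 15 members the solved reads also settled which value belongs to which library. For the other 17 this was open in 1 or both groups, and a range over both possibilities is given. Pairs of values stand in the order 32 and 41.6 M (positive) and 17.0 and 74.0 M (negative). The log2 fold over all libraries does not depend on the assignment, but a fold without 1 library of an open group does. Such folds are given for the assignment in which the libraries of a group differ less. The negative libraries differ most in depth, so their ranges are wide.

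**Figure D1:**
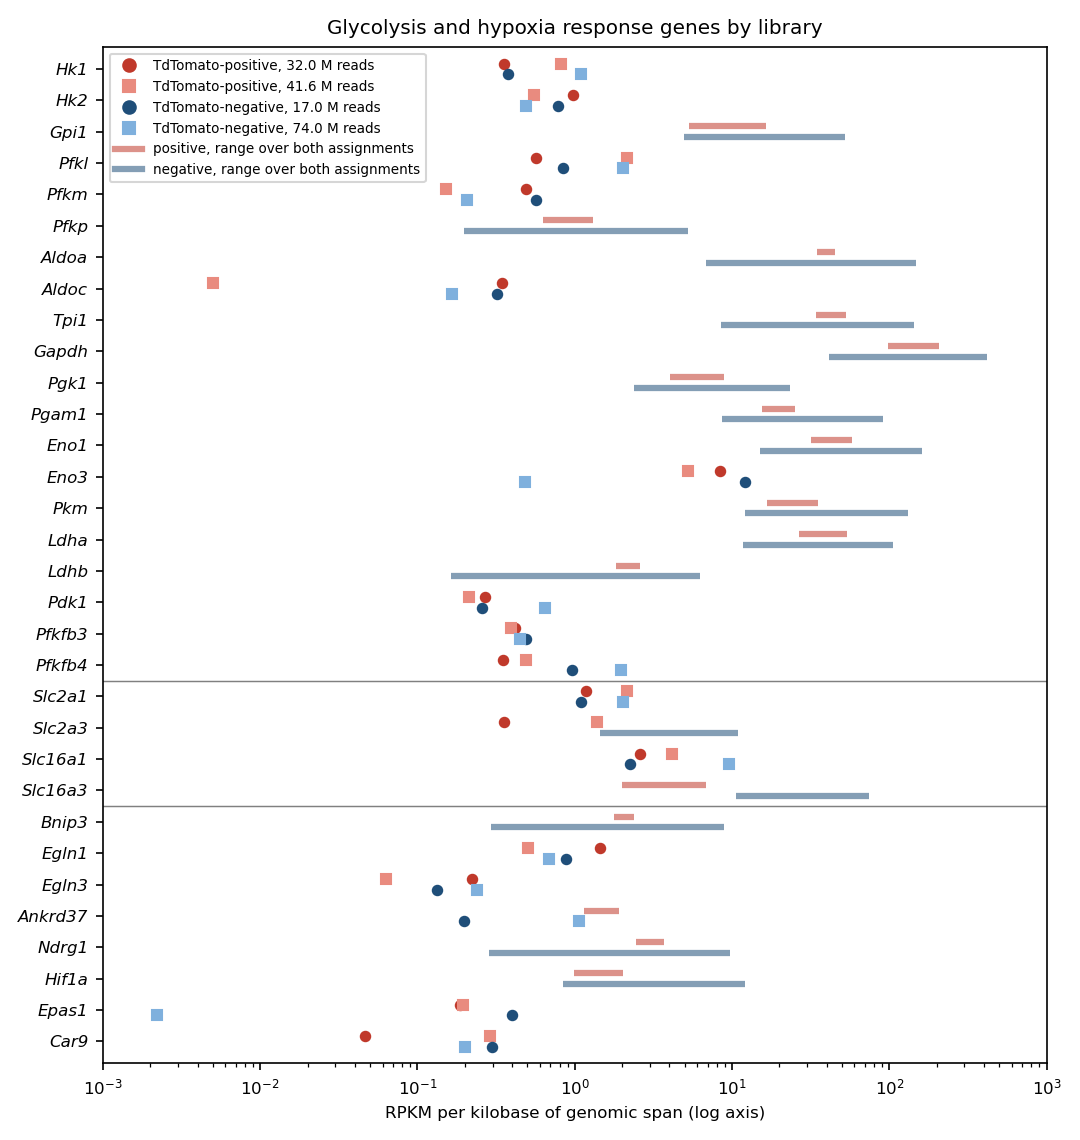
Level of each of the 32 members in RPKM per kilobase of genomic span (log axis). Points are single libraries and bars are the range over both assignments where the library of a value was open. Slc16a3, Slc2a3, Pfkfb4 and Pfkfb3 have both positive libraries below both negative ones, and Ankrd37 has both above. For Pfkfb4, Pfkfb3 and Ankrd37 this is shown for the negative assignment that was kept.

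For this count a settled assignment was kept, and both assignments were allowed only where none was settled. The 2 positive values then lay below the 2 negative ones in 4 of 32 members (Slc16a3, Slc2a3, Pfkfb4 and Pfkfb3). The same held for 13.1% of the genes with reads. Both positive values lay above the negative ones in 1 of 32 (Ankrd37), where 15.5% of the genes with reads did so. The share of members below, 12.5%, is near that of all genes. For Pfkfb4, Pfkfb3 and Ankrd37 the negative assignment was settled by 1 whole read count only. Under the one set aside, the negative values would be 0.372 and 4.55 RPKM for Pfkfb4 and 0.0258 and 2.48 RPKM for Pfkfb3, with overlap. Those of Ankrd37 would be 0.166 and 1.20 RPKM, where its positive range begins at 1.14 RPKM. Hk1 in both groups, Slc2a1 in the negative and Slc2a3 in the positive group were also settled by 1 whole read count only. Set aside were 0.604 and 0.494 RPKM (positive) and 0.176 and 1.97 RPKM (negative) for Hk1. For Slc2a1 they were 0.385 and 5.13 RPKM (negative), and for Slc2a3 1.05 and 0.489 RPKM (positive).

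Among the transporters, the lactate exporter and the high-affinity glucose transporter had the lower log2 fold of each pair. Slc16a3 (ENSMUSG00000025161.16, chromosome 11, 120948480 to 120960868, mm10) encodes MCT4, which exports lactate from strongly glycolytic cells. It lay between 2.01 and 6.88 RPKM in TdTomato-positive RNA and between 10.6 and 73.9 RPKM in TdTomato-negative RNA. The log2 fold was -2.87 (SE 0.87 to 1.64 over the possible assignments, 2 libraries per group). The authors' deposited table gave it p 0.0449 and an FDR of 1.00. Slc2a3 (ENSMUSG00000003153.10, chromosome 6, 122727809 to 122801640) encodes GLUT3, the high-affinity glucose transporter of neurons and leukocytes. It was at 0.353 and 1.39 RPKM in TdTomato-positive RNA and between 1.45 and 10.9 RPKM in TdTomato-negative RNA. The highest positive value nearly touched the lowest negative one. This gave a log2 fold of -2.33 (SE 1.12 to 1.66), with a p of 0.0958 in the authors' deposited table. The fold was -1.47 if the positive 32 M library was left out and -1.62 if the negative 74.0 M library was left out.

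The 2 other transporters overlapped between the groups. Slc2a1 encodes GLUT1, the basal glucose transporter, and was at 1.17 and 2.16 RPKM in TdTomato-positive RNA and at 1.10 and 2.01 RPKM in TdTomato-negative RNA. The log2 fold of 0.09 (SE 0.58 and, in the authors' deposited table, p 0.972) turned to -0.33 if the positive 41.6 M library was left out and to -0.32 if the negative 17.0 M library was left out. Slc16a1 encodes MCT1, which carries lactate and pyruvate in either direction. It was at 2.61 and 4.18 RPKM in TdTomato-positive RNA and at 2.25 and 9.52 RPKM in TdTomato-negative RNA. The log2 fold of -0.48 (SE 1.07 and, in the authors' deposited table, p 0.716) became 0.53 if the negative 74.0 M library was left out, the library that alone lay above the others.

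Within each pair of transporters the balance differed between the groups. Levels of different genes were compared as reads per kilobase of exons, with exon lengths from GENCODE M21. Slc2a3 made up 26.9% and 44.0% of the Slc2a1 and Slc2a3 pair in TdTomato-positive RNA. In the negative libraries it made up 61.7% to 72.9% at 17.0 M reads and 80.1% to 86.8% at 74.0 M reads. Slc16a3 made up 24.8% to 51.2% of the Slc16a1 and Slc16a3 pair in TdTomato-positive RNA and 70.9% to 80.2% in TdTomato-negative RNA. The groups did not overlap in either pair under any assignment. The order of the libraries does not depend on the exon lengths used, but the percentages do. With 2 libraries per group an exact two-sided permutation test cannot go below p = 0.333, so these shares carry no test of their own. They restate the members' values above and are not independent of them.

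**Figure D2:**
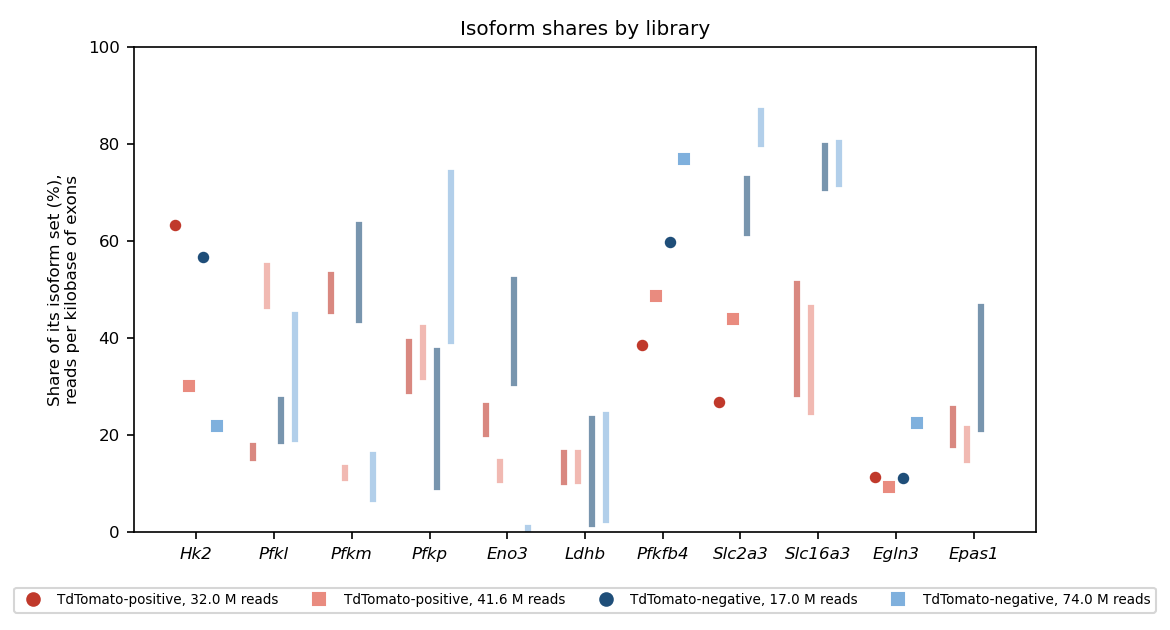
Share of a gene in its isoform set, in percent of reads per kilobase of exons, for each library. Points are settled values and bars the range over both assignments. The shares of Slc2a3, Slc16a3 and Pfkfb4 are higher in both negative libraries, while those of Hk2 and Pfkm split within each group.

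The enzymes of the main glycolytic chain were abundant in every library, and their levels overlapped between the groups. With 2 libraries per group and open assignments, the values cannot show that the groups were close. Of the 20 enzymes 7 were higher and 13 lower in positive cells (median log2 fold -0.21), and 0 had an unadjusted p below 0.05. Gapdh, which oxidises glyceraldehyde 3-phosphate and is often used as a reference gene, was the most abundant member in both groups on the deposited scale. It lay between 98.1 and 207 RPKM in TdTomato-positive RNA and between 41.6 and 420 RPKM in TdTomato-negative RNA, with a log2 fold of 0.11 (SE 0.48 to 1.75). Ldha, which makes lactate from pyruvate, had a log2 fold of 0.11 and lay between 26.6 and 54.1 RPKM in TdTomato-positive RNA against 11.7 to 106 RPKM in TdTomato-negative RNA. Tpi1, the triose phosphate isomerase, and Aldoa, the main aldolase, had log2 folds of 0.28 and 0.32, and for Aldoa the authors' deposited table gave p 0.849. Eno1, the ubiquitous enolase, and Pgk1, the first enzyme of the chain that yields ATP, had log2 folds of -0.20 and -0.32, which became 0.22 and 0.18 if the negative 74.0 M library was left out. Gapdh and Ldha became -0.35 and -0.44 if the negative 17.0 M library was left out. In TdTomato-positive RNA these 4 lay between 34.2 and 53.2 RPKM for Tpi1, 34.4 and 45.4 RPKM for Aldoa, 31.99 and 57.7 RPKM for Eno1, and 4.01 and 8.86 RPKM for Pgk1. In each case the range of the negative libraries reached both below and above.

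Gpi1, Pkm and Pgam1 were the abundant enzymes with the lowest folds. Gpi1, which isomerises glucose 6-phosphate, lay between 5.29 and 16.5 RPKM in TdTomato-positive and between 4.92 and 52.2 RPKM in TdTomato-negative RNA. The difference was a log2 fold of -0.78 (SE 0.61 to 1.88) with a p of 0.571 in the authors' deposited table. Pkm, the pyruvate kinase whose splice forms cannot be told apart in gene counts, lay between 16.6 and 35.0 RPKM against 12.2 to 131 RPKM. Its log2 fold was -0.73 (SE 0.44 to 1.79), with a p of 0.599 in the authors' deposited table. Pgam1, the phosphoglycerate mutase, had a log2 fold of -0.52 and lay between 15.4 and 24.97 RPKM against 8.61 to 91.8 RPKM. Leaving out the negative 74.0 M library gave -0.34 for Gpi1, -0.31 for Pkm and -0.10 for Pgam1. For genes with an open assignment such values hold for the assignment in which the libraries of a group differ less. Several of these genes have processed copies in the genome, to which the authors' counting could send some of their reads. Rows named as such copies held few reads, at most 983 for Eno1b, 901 for Pgk1-rs7 and 559 for Pgam1-ps2 in any library.

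The enzymes at the entry and the committed step were low, and Hk1, Hk2, Pfkl and Pfkm varied more within the groups than between them. Hk1, the housekeeping hexokinase, was at 0.356 and 0.816 RPKM in TdTomato-positive RNA and at 0.376 and 1.10 RPKM in TdTomato-negative RNA. Hk2, the inducible hexokinase, gave 0.970 and 0.554 RPKM compared with 0.777 and 0.489 RPKM. In both genes the groups overlapped. The log2 folds were -0.23 for Hk1 and 0.22 for Hk2, and 0.44 and -0.07 if the negative 74.0 M library was left out. Hk2 made up 63.4% and 56.8% of the hexokinase pair per kilobase of exons in the positive 32 M library and the negative 17.0 M library. It made up 30.2% and 22.0% in the positive 41.6 M library and the negative 74.0 M library. These shares hold for the assignment kept for Hk1, which was settled by 1 whole read count only. Of the phosphofructokinases, Pfkl and Pfkm also split within each group. Pfkl, the liver form, was at 0.568 and 2.16 RPKM in TdTomato-positive RNA and at 0.840 and 2.02 RPKM in TdTomato-negative RNA. Pfkm, the muscle form, gave 0.493 and 0.151 RPKM compared with 0.569 and 0.207 RPKM. Pfkp, the platelet form, lay between 0.627 and 1.31 RPKM against 0.197 to 5.24 RPKM. The muscle form was thus high in the positive 32 M library and the negative 17.0 M library, and the liver form in the other pair of libraries. The log2 folds were -0.20 for Pfkl and -0.23 for Pfkm, and they became 0.39 for Pfkl if the negative 74.0 M library was left out and 0.33 for Pfkm if the negative 17.0 M library was. Pfkp had a log2 fold of -0.32 (SE 0.10 to 2.14 over the possible assignments), with the same sign without each library in the assignment used.

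Of the enzymes known from particular tissues, Eno3 and Aldoc changed direction when 1 library was left out. Ldhb did not in the assignment used, but its assignment was open in both groups. Eno3 (chromosome 11, 70657202 to 70662513), the muscle enolase, was at 8.34 and 5.21 RPKM in TdTomato-positive RNA and at 12.1 and 0.486 RPKM in TdTomato-negative RNA. Its lowest level was in the negative 74.0 M library and its highest in the other negative library, so the groups overlapped. The log2 fold of 1.32 (SE 2.22, authors' deposited p = 0.377) turned to -0.87 if the negative 74.0 M library was left out, and the log2 of the authors' own ratio of group means was -0.89. Skeletal muscle markers were looked at beside it. Of 14 measured, 13 were higher in positive cells, and Ckm, the muscle creatine kinase, was at 9.88 and 0.0510 RPKM in TdTomato-negative RNA and between 3.03 and 7.65 RPKM in TdTomato-positive RNA. Summed muscle markers ranged from 112 to 308 RPKM in TdTomato-positive RNA and from 2.35 to 885 RPKM in TdTomato-negative RNA over both assignments, with none at 0 in both libraries of a group. Their part in the Eno3 values was not tested. Ldhb, the lactate dehydrogenase of oxidative tissues, lay between 1.84 and 2.58 RPKM in TdTomato-positive and between 0.162 and 6.25 RPKM in TdTomato-negative RNA. The log2 fold was 0.82 (SE 0.23 to 2.31) with a p of 0.585 in the authors' deposited table. It ran from 0.64 to 0.99 without 1 library at a time in the assignment used, which is not a range over both assignments. Aldoc, the brain aldolase, was nearly absent, at 0.345 and 0.00499 RPKM against 0.318 and 0.166 RPKM. It rested on 53 and 1 reads against 26 and 59. Its log2 fold of -0.63 (SE 1.09) became 0.42 if the positive 41.6 M library was left out.

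The regulators of glycolytic flux included 2 of the 4 members that were lower in both positive libraries, in the negative assignment kept. Pfkfb4 (ENSMUSG00000025648.17, chromosome 9, 108991778 to 109032228) makes and removes fructose 2,6-bisphosphate, the activator of phosphofructokinase. It was at 0.347 and 0.493 RPKM in TdTomato-positive RNA and at 0.966 and 1.96 RPKM in TdTomato-negative RNA. This gave a log2 fold of -1.52 (SE 0.52), with a p of 0.271 and an FDR of 1.00 in the authors' deposited table. Its relative Pfkfb3, also a HIF target, gave 0.418 and 0.393 RPKM compared with 0.491 and 0.448 RPKM. The log2 fold of -0.17 (SE 0.06) was small but free of overlap in the assignment kept. Pfkfb4 made up 38.7% and 48.7% of this pair per kilobase of exons in TdTomato-positive RNA and 59.9% and 76.8% in TdTomato-negative RNA. Pdk1, the kinase that shuts off pyruvate dehydrogenase, gave 0.269 and 0.211 RPKM compared with 0.256 and 0.647 RPKM, with a log2 fold of -0.61 (SE 0.55).

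**Figure D3:**
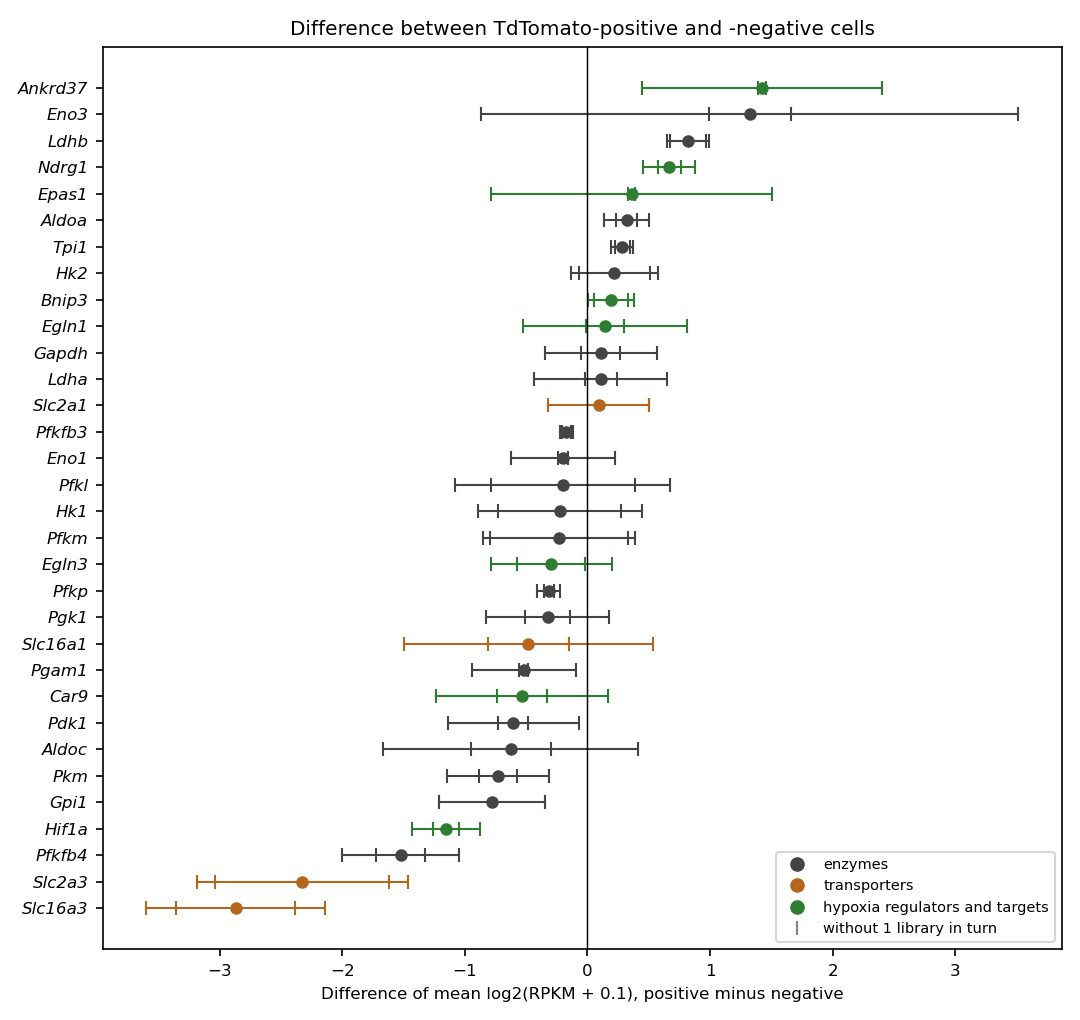
Log2 fold of each member (large points), positive minus negative, on the log2(RPKM + 0.1) scale, with the values obtained without 1 library in turn (ticks). Slc16a3, Slc2a3, Pfkfb4 and Hif1a stay below 0 and Ankrd37, Ldhb and Ndrg1 above 0 in all of these, while Eno3 and Epas1 cross it. Where the assignment was open, ticks hold only for the one in which the libraries of a group differ less. For Hif1a, Ldhb and Ndrg1 it was open in both groups, so their ticks do not cover all possible values.

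Neutrophil markers lay in the same direction as Slc16a3, Slc2a3 and Pfkfb4. All 13 of 13 were lower in positive cells (median log2 fold -1.84), and none was at 0 in both libraries of a group. Their sum ranged from 3539 to 15608 RPKM in TdTomato-positive RNA and from 6901 to 44804 RPKM in TdTomato-negative RNA. Mmp8, a granule collagenase of mature neutrophils, was at 3.86 and 14.8 RPKM in TdTomato-positive RNA and at 65.4 and 154 RPKM in TdTomato-negative RNA. Elane, the elastase of immature neutrophils, gave 46.3 and 785 RPKM compared with 140 and 320 RPKM. The positive 41.6 M library was thus low for Mmp8 and high for Elane. The part of neutrophil RNA in the transporter values was not tested.

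**Figure D4:**
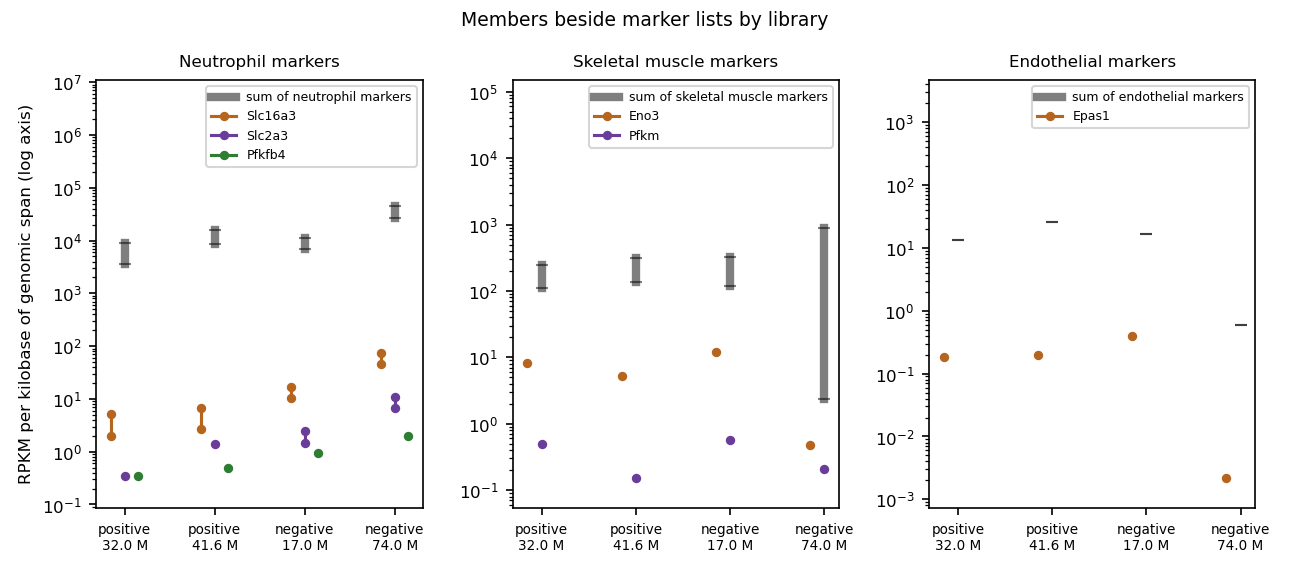
Members beside the summed level of 3 marker lists in each library, in RPKM per kilobase of genomic span (log axis). Grey bars are the sum's range over both assignments, and joined points show both possible values where open. Eno3 and Epas1 are lowest in the negative 74.0 M library, and Slc16a3, Slc2a3 and Pfkfb4 are highest there.

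The hypoxia regulators and targets lay on both sides of 0. Of 8 members 5 were higher and 3 lower in positive cells (median log2 fold 0.17), and 0 had an unadjusted p below 0.05. If the negative 74.0 M library was left out, 3 of 8 were higher and the median was -0.017. Hif1a (ENSMUSG00000021109.13, chromosome 12, 73901375 to 73947530), whose protein is the oxygen-regulated subunit of HIF-1, lay between 0.987 and 2.03 RPKM in TdTomato-positive and between 0.843 and 12.1 RPKM in TdTomato-negative RNA. The difference was a log2 fold of -1.16 (SE 0.30 to 1.91) and its p 0.401 in the authors' deposited table. The fold ran from -1.43 to -0.88 without 1 library at a time in the assignment used, which was open in both groups. HIF-1 alpha is controlled mainly as a protein, which was not measured here. Epas1 (chromosome 17, 86753907 to 86833410) encodes HIF-2 alpha, which is prominent in endothelium. It was at 0.185 and 0.196 RPKM in TdTomato-positive RNA and at 0.401 and 0.00221 RPKM in TdTomato-negative RNA, the last resting on 13 reads. The authors' deposited table gave Epas1 p 0.824. The log2 fold of 0.36 (SE 1.15) turned to -0.79 if the negative 74.0 M library was left out. Endothelial markers were higher in positive cells in 8 of 8 and none was at 0 in both libraries of a group. Their sum was 13.4 and 25.3 RPKM in TdTomato-positive RNA and 16.4 and 0.602 RPKM in TdTomato-negative RNA. Their part in the Epas1 values was not tested. Epas1 made up 0.0332% to 0.10003% of the pair with Hif1a per kilobase of exons in the negative 74.0 M library and 14.9% to 46.4% in the other 3 libraries.

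The prolyl hydroxylases that sense oxygen did not separate. Egln1 (PHD2) was at 1.44 and 0.508 RPKM in TdTomato-positive RNA and at 0.875 and 0.686 RPKM in TdTomato-negative RNA, with a log2 fold of 0.14 (SE 0.69). It became -0.53 if the positive 32 M library was left out and -0.012 if the negative 74.0 M library was. Egln3 (PHD3), itself induced by HIF, gave 0.223 and 0.0628 RPKM compared with 0.133 and 0.241 RPKM, with a log2 fold of -0.30 (SE 0.56 and, in the authors' deposited table, p 0.813). Egln3 turned to 0.20 if the positive 41.6 M library was left out. In each gene the positive libraries lay farther apart than the negative ones.

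Of the HIF targets, Ankrd37 was the member with the highest fold. Ankrd37 (ENSMUSG00000050914.15, chromosome 8, 45996902 to 45999867), a small ankyrin repeat protein induced by HIF-1, lay between 1.14 and 1.91 RPKM in TdTomato-positive RNA and was at 0.199 and 1.06 RPKM in TdTomato-negative RNA. The negative values rested on 10 and 233 reads. Its log2 fold was 1.43 (SE 0.98 to 1.04), with a p of 0.336 in the authors' deposited table, and 0.45 if the negative 17.0 M library was left out. Ndrg1, a stress-response protein, lay between 2.44 and 3.69 RPKM against 0.286 to 9.75 RPKM and had a log2 fold of 0.67 (SE 0.23 to 2.35 and, in the authors' deposited table, p 0.659). Bnip3, a mitophagy receptor, had a log2 fold of 0.19 and lay between 1.78 and 2.36 RPKM in TdTomato-positive RNA, with 0.293 to 8.92 RPKM in the negative libraries. Car9, a carbonic anhydrase widely used as a hypoxia marker, was low throughout, at 0.0463 and 0.288 RPKM in TdTomato-positive and 0.296 and 0.200 RPKM in TdTomato-negative RNA. It rested on 10 and 81 reads against 34 and 100. The log2 fold of -0.53 (SE 0.73 and, in the authors' deposited table, p 0.687) turned to 0.17 if the positive 32 M library was left out.

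Other genes of the pathway gave no call either. In each of the lists that follow, no gene passed the FDR threshold of the authors' deposited table. Of 18 measured further glycolytic and pentose phosphate genes 5 were higher and 13 lower, with a median log2 fold of -0.62 and 0 at an unadjusted p below 0.05. Hk3, the hexokinase of myeloid cells, was at 0.599 and 6.28 RPKM in TdTomato-positive and between 3.95 and 30.9 RPKM in TdTomato-negative RNA (log2 fold -2.41). G6pdx, which opens the pentose phosphate pathway, gave 1.23 and 4.84 RPKM compared with 3.97 to 32.4 RPKM (log2 fold -2.16). Eno2, the neuronal enolase, gave 1.90 and 0.819 RPKM compared with 0.845 and 0 RPKM (log2 fold 2.14). Pgam2, the muscle mutase, gave 10.5 and 2.63 RPKM compared with 13.6 and 0.458 RPKM (log2 fold 0.96). Eno2 and Pgam2 had their lowest level in the negative 74.0 M library, as Eno3 did.

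Of 11 further sugar, lactate and pyruvate carriers or their partners 7 were higher and 4 lower, with 0 at an unadjusted p below 0.05. Slc2a8 gave 2.02 and 1.60 RPKM compared with 0.544 and 0.550 RPKM, and Slc2a10 gave 0.840 and 0.493 RPKM against 0.420 and 0 RPKM. Slc2a6, a glucose transporter family member of leukocytes, gave 0.4999 and 3.47 RPKM compared with 3.66 and 8.68 RPKM, and Slc2a4, the insulin-responsive transporter, gave 0.271 and 0.774 RPKM against 1.31 and 1.26 RPKM. The groups did not overlap in these 4 genes, which were named for their small p. Of the 11 genes 3 lay above and 2 below without overlap, where 15.5% and 13.1% of the genes with reads did. Of 10 genes of the pyruvate dehydrogenase complex and its regulators 6 were higher and 4 lower, with 0 at an unadjusted p below 0.05. Pdk4, a kinase of that complex induced on fasting, was at 1.66 and 0.939 RPKM in TdTomato-positive RNA and at 1.58 and 0 RPKM in TdTomato-negative RNA. Pdk2 had a log2 fold of 0.72, Pdk3 of -0.55 and the phosphatase Pdp1 of -0.49.

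Of 12 further genes of the oxygen-sensing machinery 7 were higher and 5 lower, with 0 at an unadjusted p below 0.05. Vhl, the ubiquitin ligase subunit that recognises hydroxylated HIF, was at 1.14 and 1.95 RPKM in TdTomato-positive RNA and at 5.34 and 5.23 RPKM in TdTomato-negative RNA (log2 fold -1.76). Hif1an, the asparaginyl hydroxylase that blocks HIF activity, gave 0.319 and 0.528 RPKM compared with 1.59 and 2.56 RPKM (log2 fold -2.05). P4htm, a membrane prolyl hydroxylase, gave 0.825 and 0.461 RPKM compared with 0.182 and 0.0151 RPKM (log2 fold 2.00). The groups did not overlap in these 3 genes, which were named for their small p. Of the 12 genes 1 lay above and 3 below without overlap, where 15.5% and 13.1% of the genes with reads did. Tceb2, the elongin B partner of the ligase, had a log2 fold of 1.14 with overlap. Of 34 further HIF targets 23 were higher and 11 lower, with a median log2 fold of 0.87. An unadjusted p below 0.05 was reached by 3 of 34, all higher, where 1.58% of the genes with reads were higher at that p. Igfbp3, an IGF-binding protein, lay between 6.90 and 60.8 RPKM in TdTomato-positive RNA and was at 10.6 and 0.0121 RPKM in TdTomato-negative RNA, with overlap (log2 fold 4.24). The authors' deposited table gave it p 0.00372. Angptl4, a lipase inhibitor, lay between 5.80 and 14.8 RPKM against 1.97 and 0.338 RPKM, with no overlap (log2 fold 3.30). The authors' deposited table gave it p 0.0239. The third was Lox, the collagen cross-linking lysyl oxidase, which is named because the count is small and was picked after its values were seen. It gave 14.8 and 3.18 RPKM compared with 5.40 and 0.000979 RPKM, and the authors' deposited table gave it p 0.0261. Ero1l and Tfrc had the smallest p among the lower genes, with log2 folds of -1.43 and -1.25. Markers of fibroblasts and cartilage cells were higher in positive cells, as given above. Their part in the list's median was not tested.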

How the data were processed

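Values came from 1 deposited table of the authors' comparison of positive with negative cells. STAR, Partek and the mm10 build are named per the submitters' processing notes, without versions. Per the file headers the table holds group means of a normalized signal, a natural log difference, a ratio and a signed fold change (score), a p-value with its FDR (step-up), and the Akaike criterion (score) of the lognormal model used. The maximum over libraries, which the authors' header calls raw reads, is not whole and was treated as a score in the unit of the deposited signal.

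Each of the 47643 genes had exactly 1 solution for its 4 library values. Genes without reads fixed the depths: their values equalled 0.1 divided by depth and by span (Stop minus Start). The signal was thus read as RPKM + 0.1, divided by depth and span once more, which no header states. That division was undone. As a result the authors' ratio of group means is 0.764 for a gene without reads in any library, and the deposited log difference was shifted by 0.04 (log2) so that such genes are at 0. The deposited p and FDR were left as given and belong to the signal before that division was undone. The header names a lognormal model with shrinkage, and its p need not follow the SE given here. In the authors' deposited table Slc2a8 (log2 fold 1.55, SE 0.16) had p 0.290. Pdk4 (log2 fold 1.72, SE 2.07) had p 0.239 there. Multiplied by the span, the deposited group means put Gapdh, Eno1 and Tpi1 highest in positive cells. Whole reads within 0.01 (tolerance at most 0.05), 1 whole value of a pair within 0.002, or negative reads under the other assignment settled the libraries for 68.0% of 17109 genes. For the rest, the assignment in which the libraries of a group differ less was used, since the opposite one for all of them would place 214% of the depth of the library of 74.0 M reads in genes. No library value carries a collection number.

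The authors' deposited FDR at 0.05 was the main test, and limma 3.58.1 in R 4.3.3 on log2(RPKM + 1) the alternative. Both the recovery of library values and limma were checked on simulated data. Coordinates are those of the table, whose Stop lies 1 base past the end. For 25 of 32 members they equal GENCODE M21. The members and lists were chosen with earlier results of these data known. Full statistics are given for the 3 members with the smallest deposited p in each class and direction, and from each further list the 2 genes with the smallest p in each direction are named.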

Additional observations from a re-analysis of the deposited data

How the results depend on the processing

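No paired analysis was possible because no value of the table carries the collection number. The authors' deposited FDR called 3 genes. Limma called 0 genes on log2(RPKM + 1), on log2(RPKM + 0.1), with the other assignment for unsettled genes (chosen after seeing the data), and without each library in turn (0 to 0). At an unadjusted p below 0.05, limma on log2(RPKM + 1) had 1617 of 17109 genes, and 642 with the other assignment. Without the filter on low reads limma called 3 genes (Gm2788, Lhx8 and Gm42482), none of them among those of the authors' table. Of the members 0 passed in any of these fits. At an unadjusted p below 0.05 limma on log2(RPKM + 1) had 4 of 32 members (Ldhb, Slc16a3, Ndrg1 and Hif1a), which had unsettled values. Of all genes with reads 9.45% were below that p. With the other assignment it had 0 members and 3.75% of those genes. On log2(RPKM + 0.1) it had 3 of 32 members (Pfkfb4, Slc16a3 and Hif1a), against 7.72% of the genes with reads. Leaving out 1 library leaves a group with a single library, so for the members only folds are given for those fits.

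The members' median kept its sign in all 11 alternatives, and the count of higher members stayed within 1.5 times in 10 of 11. Not all of these could differ. Taking log2(RPKM + 0.1) from the library values, and keeping members with 10 reads in 2 libraries, returned the main values by construction. For unsettled genes, the alternatives without 1 library used only the assignment in which the libraries of a group differ less. The median of the 8 hypoxia genes, 0.17, was -0.025 with the other assignment on log2(RPKM + 1), -0.34 on the authors' ratio and -0.017 if the negative 74.0 M library was left out. By the sign of the authors' ratio of group means as deposited, 4 of 32 members were higher. That ratio is below 1 for a gene without reads. On the same ratio Eno3 was at -0.89, Aldoa at -0.13, Slc2a1 at -0.076 and Epas1 at -0.95, and with the ratio centred on genes without reads Eno3 was at -0.50, Epas1 at -0.56 and Egln3 at 0.0027. Without 1 library at a time, log2 folds ran from -0.87 to 3.51 for Eno3, -0.33 to 0.51 for Slc2a1 (-0.32 if the negative 17.0 M library was left out), -1.50 to 0.53 for Slc16a1, -0.79 to 1.51 for Epas1, -1.24 to 0.17 for Car9 and -0.79 to 0.20 for Egln3. With 1 library left in a group, limma assumes that it varies like the other group. The causes were not tested.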
